A study of Drosophila melanogaster with 4 samples.

Results

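The odorant receptor genes of Drosophila melanogaster were followed in 4 mRNA-seq libraries of adult male heads. Members were the rows of the gene table whose symbol is Or followed by a number and a letter, together with the co-receptor gene Orco. This gave 60 genes of 16680 in the table, and all 60 were matched to the Ensembl annotation of the dm6 assembly, which lists 60 genes with such symbols. All flies were F1 progeny of the b[1],Kr[If-1] stock, whose parents had been exposed to hexavalent chromium, Cr(VI), given as potassium dichromate in the food. Kr[If-1] is a gain-of-function allele of Krüppel that drives ectopic Krüppel in the ventral eye disc and makes eye development sensitive to disturbance. The question of the study was whether F1 flies with phenotypic variations of the eye have a different head transcriptome from F1 flies without them. There were 2 biological repeats without phenotype and 2 with phenotype, each from 10 pooled heads, and both groups therefore share the allele and the parental exposure. No source used here gives their age.

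Insects smell volatile compounds with odorant receptors, which are membrane proteins of the olfactory sensory neurons in the third antennal segment and the maxillary palp. A typical neuron makes 1 tuning receptor, which binds the odorant, and Orco, which pairs with the tuning receptor, carries it to the cilium and forms the ion channel with it. The neurons sit in hair-like sensilla. Basiconic sensilla of the antenna (ab) and of the palp (pb) detect mainly food odors, trichoid and intermediate sensilla of the antenna (at, ai) detect pheromones and several plant and fly odors, and coeloconic sensilla (ac) mostly use ionotropic receptors. Some members of the family are known only from the larval dorsal organ. By these known sites, 25 members belonged to basiconic sensilla of the antenna, 12 to trichoid or intermediate sensilla, 1 to coeloconic sensilla, 7 to the maxillary palp and 13 to the larva only, while Or98b was given no site. Or23a and Or83c were counted with the trichoid and intermediate class.

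The values are FPKM per gene, a read count scaled to transcript length and library size, so levels can be compared between genes. How many reads each library had is not known. From the lowest values of short genes, 1 read was worth about 0.0156 FPKM for a receptor of the family's median transcript length of 1227 bases, so 0.5 FPKM stands for about 32 reads and the lowest values of the family for single reads. Relative depth by the same estimate was 0.963 to 1.11 of that of repeat 1 without phenotype. Neuronal and photoreceptor markers were present in all libraries (elav at 20.6 to 23.2 FPKM, ninaE at 544 to 948 FPKM). The male-specific RNA roX1 was at 299 and 309 FPKM without phenotype against 357 and 408 FPKM with phenotype. The other such RNA, roX2, was at 55.0 and 56.1 FPKM against 67.6 and 72.4 FPKM. Both were higher without overlap, as were 33.8% of all genes above 0 in some library. The female yolk genes Yp1 to Yp3 were at 1.18 to 2.85 FPKM. The series text also mentions ovaries, but of the 8 ovary markers osk, nos, Cp36, Cp38 and Vm26Aa were at 0 to 0.09 FPKM, vas and bcd at 0.26 to 1.35 FPKM and grk at 24.2 to 28.5 FPKM. Gut enzyme genes differed between libraries, with a summed level of 8 genes of 364 and 40.9 FPKM in the repeats without phenotype, against 66.5 and 189 FPKM in those with phenotype. Their part in the results was not tested.

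Most tuning receptors were measured at low levels. A mean above 0.5 FPKM over the 4 libraries was reached by 36 of 60 members. Per library, 36 members were above 0.5 FPKM in each repeat without phenotype, and 34 and 35 in repeats 1 and 2 with phenotype. In every library 31 members were above this level, and in at least 1 library 39. At 0.1 FPKM the mean of 49 members was above the level, and at 1 FPKM that of 29. Just above 0.5 FPKM stood Or35a (mean 0.522 FPKM) and Or43a (0.592 FPKM), and just below it Or85a (0.457 FPKM) and Or65a (0.435 FPKM). Or19a and Or83a were listed at 0 in all libraries (all 1362 exon bases of Or83a are shared with CG1172 on the opposite strand, at 15.3 to 18.5 FPKM, so its 0 may depend on how shared reads were assigned), and 58 members were above 0 in at least 1.

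**Figure D1:**
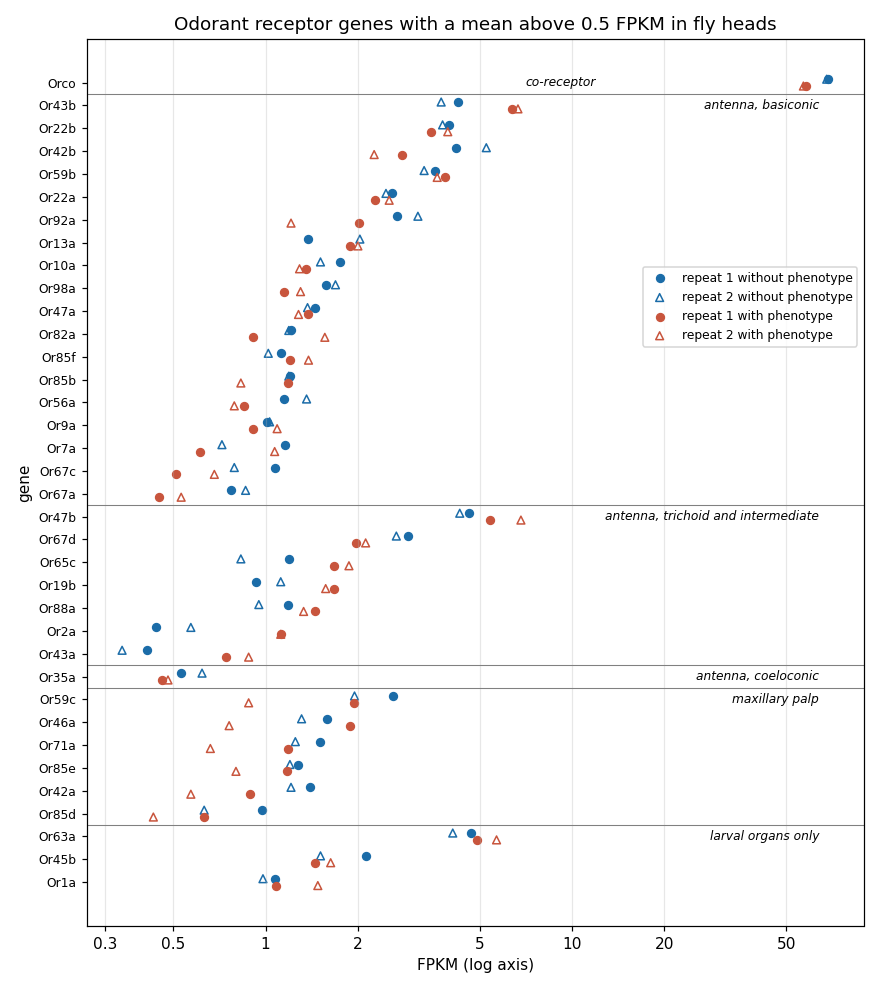
FPKM (log axis) of the 36 odorant receptor genes with a mean above 0.5 FPKM, one row per gene, grouped by the site known for the receptor; blue symbols are the libraries without and red symbols those with phenotype, circles repeat 1 and triangles repeat 2. Orco stands alone at 56.9 to 68.6 FPKM, and no other receptor exceeds 6.81 FPKM.

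Orco was by far the most abundant member. Its mean of 62.8 FPKM compares with 68.2 FPKM for the sum of the 59 other members without phenotype and 67.6 FPKM with phenotype, so that co-receptor and summed tuning receptor transcripts were of the same order. The next in order were Or47b (mean 5.28 FPKM), a receptor of at4 neurons that responds to fly-derived fatty acid odors and promotes courtship, and Or43b (5.26 FPKM), a fruit ester receptor of ab8 neurons. Or63a (4.83 FPKM), Or22b (3.79 FPKM), Or42b (3.62 FPKM), Or59b (3.58 FPKM), Or22a (2.47 FPKM), Or67d (2.42 FPKM), Or92a (2.26 FPKM), Or59c (1.85 FPKM) and Or13a (1.82 FPKM) followed. Between neighbors in this order the ranges over the 4 libraries were separate only from Orco to Or47b, from Or63a (4.08 to 5.67 FPKM) to Or22b (3.47 to 3.96 FPKM) and from Or59b (3.29 to 3.84 FPKM) to Or22a (2.28 to 2.59 FPKM), so the ranks in between are not distinct.

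Several members share sequence or exons with other genes, and how the quantification divided shared reads cannot be seen from FPKM. Or19a and Or19b, near-identical copies on X (20141819 to 20143188 and 20094398 to 20095767 in dm6), were listed at 0 and at 0.93 to 1.67 FPKM, so the pair is best read as 1 measurement under the name Or19b. Or22a and Or22b, tandem copies on 2L (1520491 to 1522156 and 1522697 to 1524257), were at 2.28 to 2.59 and 3.47 to 3.96 FPKM. Exons of 9 members overlap those of another gene. Or10a lies wholly in the exons of Gr10a on the same strand, a gustatory receptor gene made in the same ab1 neuron, which was at 2.09 to 2.74 FPKM. Or43b shares 575 exon bases with Cul1 on the opposite strand, a ubiquitin ligase gene at 53.5 and 64.9 FPKM without phenotype against 58.4 and 57.1 FPKM with phenotype. The library kit is not stated to keep the strand, so reads of such partners could be counted to either gene. The antisense RNA gene CR45281 covers all 1191 bases of Or45b and was at 1.75 to 1.99 FPKM, close to Or45b itself at 1.45 to 2.13 FPKM. Or46a, with 2 annotated transcripts, shares 2450 exon bases with the antisense RNA gene CR43467. That gene was at 0.25 and 0.31 FPKM without phenotype against 0.38 and 0.42 FPKM with phenotype. Or88a shares 1036 bases with the antisense RNA gene CR44237, at 0.05 to 0.2 FPKM, and Or47a 163 bases with the cuticle protein gene Cpr47Ea, at 42.7 and 38 FPKM without phenotype against 22.8 and 22 FPKM with phenotype.

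Between the groups, no member of the family passed the test. The test was limma on log2(FPKM + 1) over the 10983 genes whose mean reached 0.5 FPKM, with two-sided p-values adjusted by Benjamini-Hochberg and called under 0.1. It called 0 of the 36 members tested and 0.0728% of all genes tested (0.0455% higher and 0.0273% lower). The smallest adjusted p of a member was 0.14 (Or43b, from limma). With limma's p taken unadjusted, 6 members were higher and 4 lower at 0.05, where 15.4% of all genes tested were higher and 6.43% lower. A gene that did not pass is not shown to be unchanged, since 2 libraries per group leave few degrees of freedom. The p-values rest on the spread between these repeats, moderated towards that of other genes of similar level. They measure no spread beyond that of these libraries.

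Directions were mixed over the family, with more members lower than higher. Of the 36 members tested, 11 had both libraries with phenotype above both without and 15 had both below. Among all genes tested these shares were 40.6% and 18.3%. With the libraries rescaled by median ratios the members split into 8 and 20, and all genes into 28.5% and 29.4%. Because a filter on the mean favors members that are high in 1 group (Or43a passed only through its values with phenotype, and Or67a and Or35a only through those without), the same count was taken over the 58 members above 0 in some library. It gave 13 higher and 17 lower, against 33.8% and 16.2% of all genes above 0 (49.9% in either direction). The median difference on log2(FPKM + 1) was -0.089 over the 36 members and 0.070 over all genes tested.

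**Figure D2:**
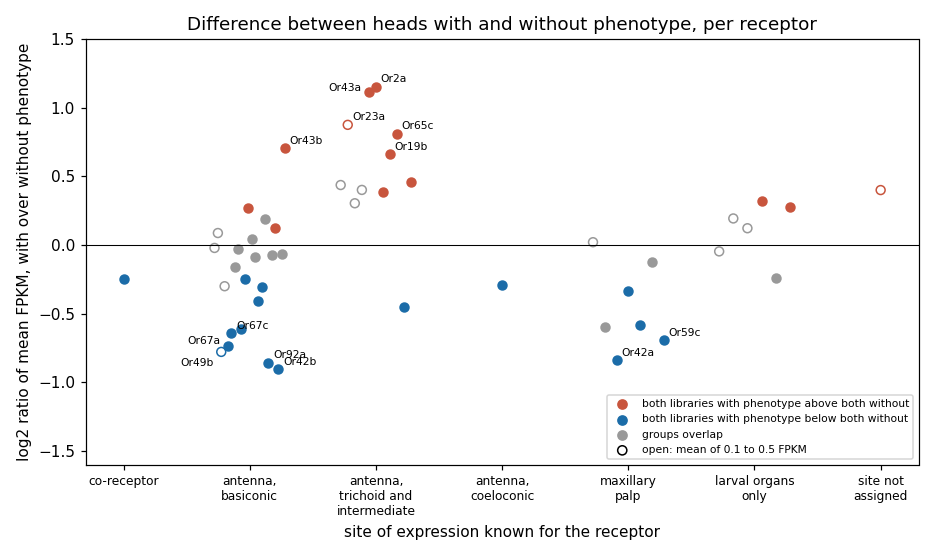
Log2 ratio of mean FPKM with phenotype to mean FPKM without, one point per odorant receptor gene with a mean above 0.1 FPKM (49 genes), by the site known for the receptor; red and blue mark members whose libraries did not overlap between groups, grey those that overlapped, and open points members with a mean of 0.1 to 0.5 FPKM. Or2a and Or43a of the trichoid and intermediate class lie highest, at 2.22-fold and 2.16-fold higher, and Or42b lies lowest, at 1.87-fold lower.

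The co-receptor gene Orco (3R, 5407183 to 5412406, minus strand in dm6) was lower with phenotype. It was at 68.6 and 67.8 FPKM without phenotype against 58.0 and 56.9 FPKM with phenotype. The groups were separate, and the repeats of a group differed by little (68.2 ± 0.537 FPKM and 57.4 ± 0.778 FPKM, SD, n = 2). The log2 fold change was -0.24 ± 0.075 (SE; limma, adjusted p = 0.19). The sum of the other 59 members did not show this difference, at 70.3 and 66.1 FPKM without phenotype against 67.3 and 67.8 FPKM with phenotype. Relative to Orco, the summed tuning receptors thus stood at 1.03 and 0.975 without phenotype and 1.16 and 1.19 with phenotype.

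Receptors of basiconic sensilla were mixed, with more members lower than higher. Of 25 members all were above 0 in some library, 3 of them were higher and 10 lower without overlap, where 33.8% and 16.2% of all genes above 0 were so. Of the 18 tested, 3 were higher and 8 lower without overlap, against 40.6% and 18.3% of all genes tested, and with median ratio scaling 2 and 12, against 28.5% and 29.4%. Their summed FPKM was 38.1 and 38.3 without phenotype and 34.6 and 35.6 with phenotype. The lower members included the receptors of the ab1 sensillum, which senses vinegar and yeast odors and carbon dioxide. Or42b, the ab1A receptor for ethyl acetate and other fruit esters, was at 4.19 and 5.25 FPKM without phenotype against 2.78 and 2.26 FPKM with phenotype. Its log2 fold change was -0.70 ± 0.14 (SE; limma, adjusted p = 0.15), and the mean was 1.87-fold lower. Or92a, the ab1B receptor for diacetyl, was at 2.69 and 3.14 FPKM without phenotype against 2.01 and 1.21 FPKM with phenotype (log2 fold change -0.60 ± 0.19 SE; limma, adjusted p = 0.19). Or10a, the ab1D receptor for methyl salicylate, was at 1.75 and 1.51 FPKM without phenotype against 1.35 and 1.29 FPKM with phenotype. None of these 3 overlapped between groups, but Gr10a, which shares all exon bases of Or10a and is made in the same neuron, did, at 2.44 and 2.74 FPKM without phenotype against 2.09 and 2.48 FPKM with phenotype (limma, adjusted p = 0.53).

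The carbon dioxide receptor genes of the ab1C neuron, Gr21a and Gr63a, belong to the gustatory receptor family and need no Orco. They were set beside the ab1 odorant receptors after the values were seen. Gr21a was at 0.93 and 1.13 FPKM without phenotype against 0.54 and 0.36 FPKM with phenotype. Gr63a was at 1.49 and 1.77 FPKM without phenotype against 0.8 and 0.75 FPKM with phenotype. Both were lower in both libraries with phenotype, as were 18.3% of all genes tested. Neither passed (adjusted p = 0.20 and 0.16 from limma). The 3 odorant receptors of ab1 together were 1.70-fold lower with phenotype, and 0.514 to 0.663 of the level without phenotype when any 1 library was left out. These 3 were also grouped after the values were seen, so the range describes them and is no independent check.

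Other basiconic receptors stood on either side. Or43b of ab8A was at 4.26 and 3.74 FPKM without phenotype against 6.36 and 6.66 FPKM with phenotype. The log2 fold change was 0.59 ± 0.092 (SE), with the smallest p of the members tested (limma, adjusted p = 0.14). The overlapping Cul1, given above, did not separate the groups, and its part in the values of Or43b was not tested. Or59b, the ab2A receptor for methyl acetate, was at 3.56 and 3.29 FPKM without phenotype against 3.84 and 3.63 FPKM with phenotype. Its log2 fold change of 0.10 was close to the median of all genes, 0.070, and was 0.03 with libraries rescaled by median ratios. Or85f, a receptor of ab10B for odors of parasitoid wasps, was at 1.12 and 1.02 FPKM without phenotype against 1.2 and 1.38 FPKM with phenotype.

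Of the lower basiconic members, Or56a, the ab4B receptor for geosmin, was at 1.15 and 1.36 FPKM without phenotype against 0.85 and 0.79 FPKM with phenotype. Or98a of ab7A was at 1.57 and 1.69 FPKM without phenotype against 1.15 and 1.3 FPKM with phenotype. Or67a of ab10A was at 0.77 and 0.86 FPKM without phenotype against 0.45 and 0.53 FPKM with phenotype. These 3 were lower without overlap, as were 18.3% of all genes tested and 16.2% of all genes above 0. None of them passed (adjusted p = 0.26, 0.30 and 0.31 from limma). Or49b of ab6B, below the filter, was at 0.51 and 0.57 FPKM without phenotype against 0.3 and 0.33 FPKM with phenotype. The ab3A receptors Or22a and Or22b, which detect ethyl hexanoate and related esters, overlapped between groups, with a summed level of 6.55 and 6.25 FPKM without phenotype against 5.75 and 6.46 FPKM with phenotype. Or13a, the ab6A receptor for the mushroom odor octenol, overlapped as well, at 1.37 and 2.03 FPKM without phenotype against 1.88 and 2 FPKM with phenotype. Or47a, Or82a, Or9a and Or7a also overlapped between groups, while Or67c of ab7B, Or85b of ab3B and Or33b made up the 10 lower members.

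Partner receptors that are known to share a neuron were not equally measured. Or85f was at 1.02 to 1.38 FPKM, while its ab10B partner Or49a was at 0 to 0.03 FPKM, a few reads at most. Or56a was at 0.79 to 1.36 FPKM, while Or33a, made in the same ab4B neuron, was at 0.04 to 0.11 FPKM. Or33b, which accompanies Or47a in ab5B, was at 0 to 0.11 FPKM against 1.28 to 1.45 FPKM for Or47a.

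Receptors of trichoid and intermediate sensilla were mostly higher with phenotype. Of 12 members 11 were above 0 in some library, 7 of these were higher and 1 was lower without overlap, where 33.8% and 16.2% of all genes above 0 were so. Of the 7 tested, 6 were higher and 1 lower, also with median ratio scaling, against 40.6% and 18.3% of all genes tested as deposited and 28.5% and 29.4% when rescaled. Or43a, 1 of these 6, passed the filter only through its values with phenotype. The class summed to 12.9 and 11.9 FPKM without phenotype and to 15.6 and 17.4 FPKM with phenotype, 1.33-fold higher in the mean (1.26-fold to 1.41-fold when any 1 library was left out, and 1.25-fold with median ratio scaling). Its share of the tuning receptor sum was 18.4% and 18.0% without phenotype and 23.2% and 25.7% with phenotype. The share of the basiconic class was 54.2% and 57.9% without phenotype and 51.4% and 52.5% with phenotype.

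The at3 sensillum, also called ai3, houses Or2a, the Or19 copies and Or43a. Or2a (X, 2246231 to 2247567 in dm6) was at 0.44 and 0.57 FPKM without phenotype against 1.12 FPKM in both libraries with phenotype. The mean was 2.22-fold higher, where 1 read is worth about 0.0151 FPKM (log2 fold change 0.50 ± 0.14 SE; limma, adjusted p = 0.18). Or43a was at 0.41 and 0.34 FPKM without phenotype against 0.74 and 0.88 FPKM with phenotype, 2.16-fold higher in the mean (adjusted p = 0.23 from limma). Or19b, which stands for the pair of citrus terpene receptors that guide egg laying, was at 0.93 and 1.12 FPKM without phenotype against 1.67 and 1.57 FPKM with phenotype (adjusted p = 0.20 from limma). All 3 were higher without overlap, as were 40.6% of all genes tested and 33.8% of all genes above 0. Their sum was 1.86-fold higher (1.75-fold to 1.99-fold when any 1 library was left out). This grouping and those of ab1 and at4 were made after the values were seen. The range therefore describes these genes and is no independent check.

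The at4 sensillum responds to fly odors and houses Or47b, Or65a, Or65b and Or65c, and Or88a. Or47b was at 4.6 and 4.3 FPKM without phenotype against 5.39 and 6.81 FPKM with phenotype (log2 fold change 0.38 ± 0.125 SE, limma, adjusted p = 0.20). Its mean over the 4 libraries, 5.28 FPKM, was the highest of the tuning receptors but not distinct from that of Or43b, 5.26 FPKM. Or88a, a receptor for methyl esters of fatty acids from flies, was at 1.18 and 0.95 FPKM without phenotype against 1.45 and 1.33 FPKM with phenotype. The 3 Or65 genes lie side by side on 3L (6320611 to 6329069 in dm6) and are made in 1 neuron. Or65c was at 1.19 and 0.83 FPKM without phenotype against 1.67 and 1.87 FPKM with phenotype (log2 fold change 0.47 ± 0.15 SE; limma, adjusted p = 0.19). Or65a, at 0.43 and 0.32 FPKM without phenotype against 0.42 and 0.57 FPKM with phenotype, and Or65b, at 0.28 and 0.36 FPKM without phenotype against 0.35 and 0.44 FPKM with phenotype, overlapped between groups. The 5 receptors together summed to 7.68 and 6.76 FPKM without phenotype and to 9.28 and 11.0 FPKM with phenotype.

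**Figure D3:**
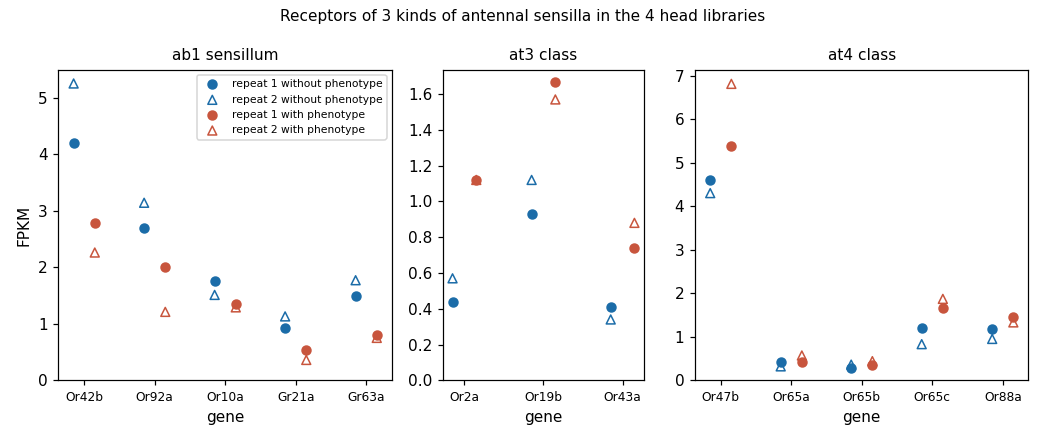
FPKM of receptor genes of the ab1 sensillum and of the at3 and at4 classes in the 4 head libraries, each panel with its own axis from 0; blue symbols are libraries without and red those with phenotype, circles repeat 1 and triangles repeat 2. The 5 genes drawn for ab1 are lower in both libraries with phenotype (Gr10a, whose groups overlap, is not drawn), the 3 at3 genes are higher, and of the at4 genes Or47b, Or65c and Or88a are higher without overlap. Of all genes tested, 40.6% are higher and 18.3% lower without overlap, and the genes were grouped after their values were seen.

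The at1 receptor Or67d went the other way. Or67d detects the male pheromone cis-vaccenyl acetate and was at 2.92 and 2.67 FPKM without phenotype against 1.97 and 2.12 FPKM with phenotype. The 2 groups were separate (log2 fold change -0.32 ± 0.10 SE; limma, adjusted p = 0.20). The pheromone response of at1 also needs the odorant binding protein LUSH from support cells and the membrane protein SNMP1 of the neuron. The gene lush, which the naming rule does not cover, was at 132 and 139 FPKM without phenotype against 92.3 and 100.2 FPKM with phenotype (adjusted p = 0.15 from limma), while Snmp1 overlapped, at 39.9 and 41.6 FPKM without phenotype against 43.2 and 37.5 FPKM with phenotype. Of the remaining trichoid and intermediate members, Or23a was at 0.2 and 0.28 FPKM without phenotype against 0.47 and 0.41 FPKM with phenotype, and Or83c, the farnesol receptor, was at 0.18 to 0.37 FPKM in the 4 libraries.

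Receptors of the maxillary palp were lowest in 1 library. All 7 had their lowest value in repeat 2 with phenotype, which was the lowest library for 16.9% of all genes above 0. The trait was not confined to the palp, since that library was the lowest for 19 of the 60 members, Orco included. By class it was the lowest for 9 of the 25 basiconic receptors, among them all 3 odorant receptors of ab1. It was the lowest for 0 of the 12 trichoid and intermediate receptors. Or59c of pb3A was at 2.61 and 1.95 FPKM without phenotype against 1.94 and 0.88 FPKM with phenotype. Or42a, the pb1A receptor for fruit esters, was at 1.4 and 1.21 FPKM without phenotype against 0.89 and 0.57 FPKM with phenotype. Or71a, the pb1B receptor for plant phenols, was at 1.51 and 1.25 FPKM without phenotype against 1.18 and 0.66 FPKM with phenotype. In these genes repeat 1 with phenotype stood close to or somewhat below the libraries without phenotype, and repeat 2 with phenotype well below.

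Or46a of pb2B was at 1.58 and 1.31 FPKM without phenotype against 1.89 and 0.76 FPKM with phenotype, so that the repeats with phenotype were the highest and the lowest of the 4. Or85e of pb2A was at 1.28 and 1.2 FPKM without phenotype against 1.17 and 0.8 FPKM with phenotype, and Or33c, its partner in the same neuron, was at 0.34 and 0.35 FPKM without phenotype against 0.45 and 0.25 FPKM with phenotype. Or85d of pb3B was at 0.97 and 0.63 FPKM without phenotype against 0.63 and 0.43 FPKM with phenotype. Of the 6 palp receptors tested none passed, and their adjusted p ran from 0.23 (Or42a) to 0.81 (Or46a) from limma. The 7 genes summed to 9.69 and 7.9 FPKM without phenotype and to 8.15 and 4.35 FPKM with phenotype. The sum with phenotype was 0.711 of that without, 0.927 when repeat 2 with phenotype was left out and 0.495 when repeat 1 with phenotype was left out. As a share of Orco, the palp sum was 14.1% and 11.7% without phenotype and 14.1% and 7.65% with phenotype. In bulk heads, fewer neurons of a kind and less RNA per neuron cannot be told apart, for these and for the other classes.

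**Figure D4:**
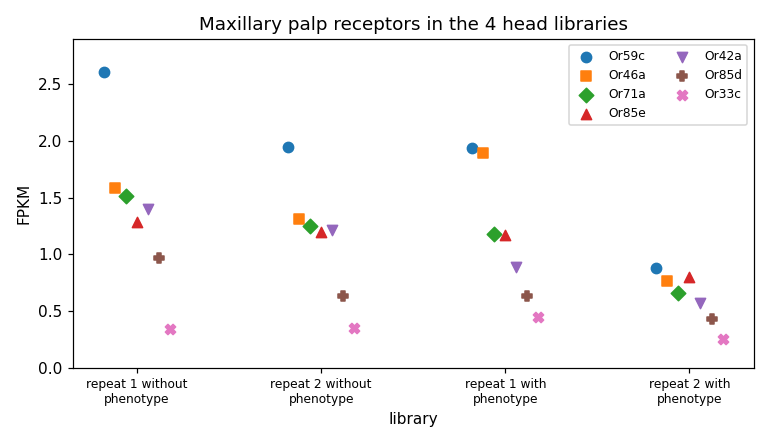
FPKM of the 7 maxillary palp receptor genes in each of the 4 head libraries, one symbol per gene. Every gene has its lowest value in repeat 2 with phenotype, at 0.25 to 0.88 FPKM.

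Of 13 receptors known from larval organs only, 10 were at a mean below 0.5 FPKM and Or83a was at 0 throughout. Or63a was an exception, at 4.67 and 4.08 FPKM without phenotype against 4.91 and 5.67 FPKM with phenotype, the fourth highest member of the family. No exon of Or63a overlaps that of another annotated gene. The groups did not overlap as deposited, with a log2 fold change of 0.23 ± 0.11 (SE; limma, adjusted p = 0.30). With median ratio scaling it was 0.15 (adjusted p = 0.44 from limma), and no larval receptor tested was then separate. Or1a was at 1.07 and 0.98 FPKM without phenotype against 1.08 and 1.48 FPKM with phenotype. Or45b was at 2.13 and 1.51 FPKM without phenotype against 1.45 and 1.63 FPKM with phenotype, with the antisense overlap given above. Of the others, Or22c, Or94a and Or45a were at 0.09 to 0.4 FPKM, and Or85c, Or94b, Or24a, Or74a, Or30a and Or59a at 0 to 0.09 FPKM, a few reads at most.

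The only receptor of coeloconic sensilla, Or35a of ac3, was at 0.53 and 0.62 FPKM without phenotype against 0.46 and 0.48 FPKM with phenotype. Or98b, to which no site was given, was at 0.26 and 0.21 FPKM without phenotype against 0.29 and 0.33 FPKM with phenotype. Or69a and Or67b of ab9 and Or85a of ab2B, all below the filter, overlapped between groups.

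**Figure D5:**
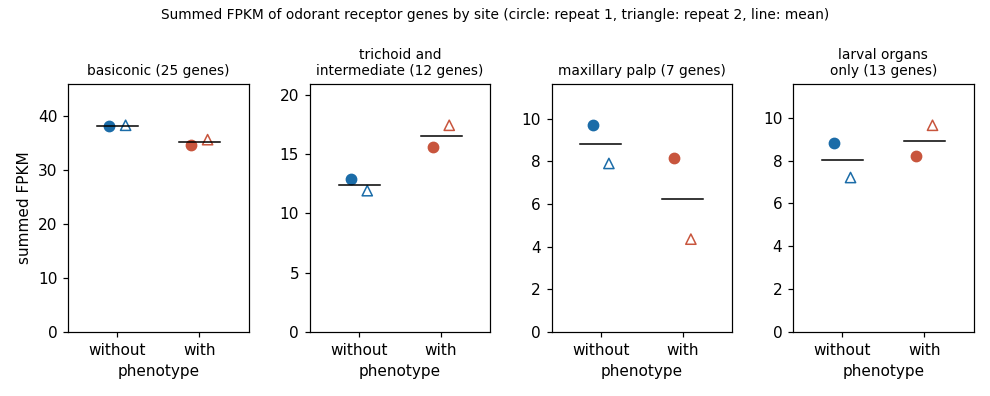
Summed FPKM of the odorant receptor genes of 4 sites in heads without and with phenotype, each panel with its own axis from 0; circles are repeat 1, triangles repeat 2 and lines the mean of 2. The trichoid and intermediate sum is higher in both libraries with phenotype (15.6 and 17.4 FPKM against 12.9 and 11.9 FPKM), the basiconic sum is lower in both, and the palp sum is low in repeat 2 with phenotype (4.35 FPKM).

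A list of 20 genes of olfactory neurons was mixed in direction. It held transcription factors of receptor choice (acj6, pdm3, onecut, Xbp1, Fer1 and others), Snmp1 and receptors of neurons that do not rely on Orco (Gr21a, Gr63a and 5 ionotropic receptor genes). Of the 17 tested, 0 passed, with 1 higher (Atf3) and 2 lower (Gr21a and Gr63a, given above) at an unadjusted p under 0.05 from limma, where 15.4% of all genes tested were higher and 6.43% lower. Without overlap, 6 were higher and 4 lower, against 40.6% and 18.3% of all genes tested, and the median log2 fold change was 0.04. The most abundant were Xbp1, a stress-response transcription factor, at 181 to 196 FPKM, onecut at 42.9 to 51.1 FPKM and Snmp1. The POU factor acj6, needed for the expression of many antennal and palp receptors, was at 5.64 and 6.09 FPKM without phenotype against 5.74 and 6.43 FPKM with phenotype. Of 6 neuronal markers none passed, and all had a positive log2 fold change (median 0.11), as had 6841 of the 10983 genes tested (median 0.070, or -0.008 with median ratio scaling).

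Genes of the support cells that surround olfactory neurons were mostly lower. Of 12 such genes tested, 0 passed, with 0 higher and 3 lower at an unadjusted p under 0.05 from limma, against 15.4% and 6.43% of all genes tested. Without overlap, 1 was higher and 6 were lower, against 40.6% and 18.3%, and the median log2 fold change was -0.15. The 3 with an unadjusted p under 0.05 from limma were lush, given above, Obp69a and Obp28a. Of the 12, Obp28a differed most, at 319 and 324 FPKM without phenotype against 158 and 168 FPKM with phenotype. Its log2 fold change was -0.98 (limma, adjusted p = 0.12). The most abundant were the odorant binding protein genes Obp83a, at 836 and 682 FPKM without phenotype against 668 and 755 FPKM with phenotype, and Obp83b, at 694 and 621 FPKM without phenotype against 589 and 681 FPKM with phenotype, and the chemosensory protein gene a10, at 519 and 490 FPKM without phenotype against 420 and 491 FPKM with phenotype. These 3 overlapped between groups, and repeat 1 with phenotype was the lowest library for 9 of the 12 genes, as for 2295 of the 15508 genes above 0. The palp receptors, by contrast, were lowest in repeat 2 with phenotype, as were some other members of the family.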

How the data were processed

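Total RNA of 10 heads per library was polyA-selected and sequenced by the authors with single-end reads of 50 cycles, aligned to RefSeq mRNA (dm6) with Bowtie 2 and quantified with RSEM (no versions are stated; the submitters' notes also name dm3, without a role). The deposited values are FPKM per gene to 2 decimals, so whole reads could not be recovered and the count-based EBSeq test of the study was replaced by limma (version 3.58.1, R version 4.3.3, moderated with a mean trend) on log2(FPKM + 1), in genes whose mean reached 0.5 FPKM, two-sided, with a threshold of adjusted p under 0.1. The value of 1 read was estimated from genes with 1 transcript of 300 to 700 bases (percentile 1 of FPKM times length above 0). Tables were made with Python 3.11.15 and pandas 2.3.3, and sites of expression were taken from general knowledge. With 2 libraries a group the smallest two-sided p of an exact permutation is 0.333, so sums of members carry no p. The members and lists were chosen with earlier results of these data known. Named genes were Orco, the 12 most abundant members, the 6 largest differences in either direction, the palp receptors, larval receptors above 0.5 FPKM, near-identical copies and the 3 most abundant genes of the neuron and support cell lists, and others named were chosen after their values were seen. Alternatives were other pseudocounts, filters, scaling, a threshold of 0.05, no trend, a replicate block and leaving out each library. The fit was also run on simulated data, drawn with normal noise and not as reads. Its outcome is not given, so it lends no weight to the count of 0 members. No receptor sequence is shown, and none was used.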

Additional observations from a re-analysis of the deposited data

How the results depend on the processing

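The count of 0 odorant receptor genes past the threshold was the same with every other pseudocount, filter, scaling, threshold and left-out library. A crossed block (repeat 1 with repeat 2), chosen after seeing the data because deviations of same-numbered repeats had a correlation of -0.123, called 1 (Or42b) and 278 of all genes. The replicate block by repeat number called 0 members and 0 of all genes, where limma's unadjusted p was under 0.05 for 5 members and 2130 genes. The count of 8 genes among all tested was 3 with no filter, 1 with median ratio scaling, 5 without trend and 4 at a threshold of 0.05, and 0 to 268 when a library was left out (268 without repeat 1 and 108 without repeat 2 without phenotype, 0 without either repeat with phenotype). The median log2 fold change of the members was -0.184 and -0.128 with pseudocounts of 0.1 and 0.5, -0.053 with a filter of 1 FPKM, -0.014 with no filter and -0.125 with median ratio scaling, and -0.109 to -0.031 with a library left out (-0.031 without repeat 1 without phenotype). The summed FPKM with phenotype was 0.917 of that without, 0.991 without Orco, 0.863 with median ratio scaling and 0.901 to 0.934 when a library was left out. Of the named members tested, some turned sign in log2 fold change when a library was left out (ranges are over those fits only). These were Or13a (-0.044 to 0.311) and Or45b (-0.302 to 0.016) without repeat 1 without phenotype. Or22b (-0.123 to 0.018) did so without repeat 1 with phenotype, and Or46a (-0.472 to 0.243) without repeat 2 with phenotype. Or22a (-0.106 to 0.0) came to 0.0 without repeat 1 with phenotype. None of these members had passed. The causes were not tested. Depth limits the members below 0.5 FPKM, a level of about 32 reads at the median transcript length.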
